A study of Mus musculus with 2 samples.

Results

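Interferon-stimulated genes are the genes that a cell switches on when interferon reaches it, and 35 of them were followed here in 2 populations of mouse leukaemia cells. The members were named as a list, and a member was found on the arrays through probes whose RefSeq accession belongs to its gene: 33 of the 35 had such a probe, 40 probes in all, among 20618 genes with a matched probe. Mx1 and Mx2, the dynamin-like GTPases that block virus replication, matched no probe of the array and were not analysed here; the gene table lists both as transcribed pseudogenes. The cells were mouse B-ALL, acute lymphoblastic leukaemia of the B-cell lineage, taken from bone marrow at a labelled age of 8 weeks. SoNar, a fluorescent sensor of the cytosolic NADH/NAD+ balance, served to sort them into SoNar-high and SoNar-low cells. Each population gave RNA for 1 one-colour Agilent array, and no genotype, treatment or driver of the leukaemia is given for either group in the labels beyond the titles, which have N-myc-high in place of SoNar-high and N-myc-low in place of SoNar-low. With 1 array per population there was no replicate and no test between them; a difference compares 2 arrays, and fewer cells of a type cannot be told apart from less RNA per cell.

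Interferons are secreted when a cell senses foreign or misplaced nucleic acid. Type I interferon binds a receptor made of IFNAR1 and IFNAR2, the kinases JAK1 and TYK2 phosphorylate STAT2, and it joins IRF9 in a complex that binds the interferon-stimulated response element (ISRE) in the promoters of target genes. The products detect viral RNA, stop translation, degrade RNA, hold virions at the membrane or restrain the response itself, and B-lineage cells and their leukaemias carry the receptor like most nucleated cells.

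The ISRE is the sequence that ties this set of genes together, so its core, GAAA and GAAA separated by any 2 bases (TTTC and TTTC on the other strand), was searched on both strands in RefSeq promoters (GRCm38.p6), from 250 bases before to 50 after the transcription start. Promoters were at hand for 28 members, and 16 of them (57.1%) held the core, against 3.99% of 27025 genes and 3.44% of 32851 promoters. These stretches are printed because their genes stand for the member families described below; the core, or overlapping cores, is in capitals and each is written on its gene's strand.
Isg15, chr4:156200867-156200904, minus strand: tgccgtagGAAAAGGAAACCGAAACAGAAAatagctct
Ifit1, chr19:34640777-34640821, plus strand: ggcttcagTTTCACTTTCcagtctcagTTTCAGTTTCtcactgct
Ifit3, chr19:34583399-34583424, plus strand: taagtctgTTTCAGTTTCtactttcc
Gbp2, chr3:142620596-142620621, plus strand: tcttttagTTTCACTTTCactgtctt
Gbp3, chr3:142559991-142560022, plus strand: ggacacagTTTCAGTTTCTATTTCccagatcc
Bst2, chr8:71537579-71537610, minus strand: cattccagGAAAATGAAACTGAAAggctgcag
Oas3, chr5:120777717-120777742, minus strand: agggaggaGAAAACGAAAgtgaaggg
Ifitm2, chr7:140955990-140956015, minus strand: accaacagGAAAAGGAAAttgctaga
Stat2, chr10:128270268-128270293, plus strand: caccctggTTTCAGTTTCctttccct
In Isg15, 3 overlapping cores began 78, 72 and 66 bases before the start. In Ifit1 a pair of separate cores began 104 and 85 bases before it, and in Gbp3 a pair of overlapping ones 45 and 39 bases before it. Ifit3 held cores that began 156 and 122 bases before its start, of which only the nearer is printed. The cores of Ifih1, Ddx58, Ifitm3 and Eif2ak2 began after the start, between its base 3 and base 33. Among members with no core in the window were Irf1, Irf9, Trim25, Ifi35 and Isg20. Irf1 instead held TTCCCCGAA, 90 bases before its start, a match to TTC and GAA separated by any 3 bases, the form of the gamma-activated site, an element that responds to interferon gamma. That second pattern, looked for after the first, reads the same on both strands and was found in 8 of the 28 members (28.6%) and in 9.55% of genes. A match describes the letters of a window and is not a measured binding site.

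As a group the interferon-stimulated genes lay close to the median gene when each array was scaled to its 75th percentile, and the largest single differences were a lower Ifitm3 and a higher Stat2, Irf1 and Trim25 in SoNar-high cells. A probe counts as measured when the scanner software calls it well above background on both arrays; 17 members (51.5% of the 33) had such a probe, as did 51.0% of all genes. Their median difference was 0.26 on the log2 scale, SoNar-high minus SoNar-low, after each array's signals had been divided by the 75th percentile over its probes; the median over 10521 measured genes was 0.22. None of the 17 members was at least 2-fold higher in SoNar-high cells, against 2.4% of measured genes, and 1 was at least 2-fold lower, Ifitm3, against 4.39%. Of the 17 members 14 (82.4%) lay above 0, against 66.9% of measured genes, and 10 lay above the median gene. Members spread with an SD of 0.49 (n = 17) around their mean, against 0.58 over all measured genes. Those medians and counts move with the scaling, since a scaling shifts every gene: under scaling to the array median 6 members were at least 2-fold higher (32.1% of genes were), and under the 75th percentile over probes seen on both arrays the member median was -0.03, with the median gene at -0.07.

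**Figure D1:**
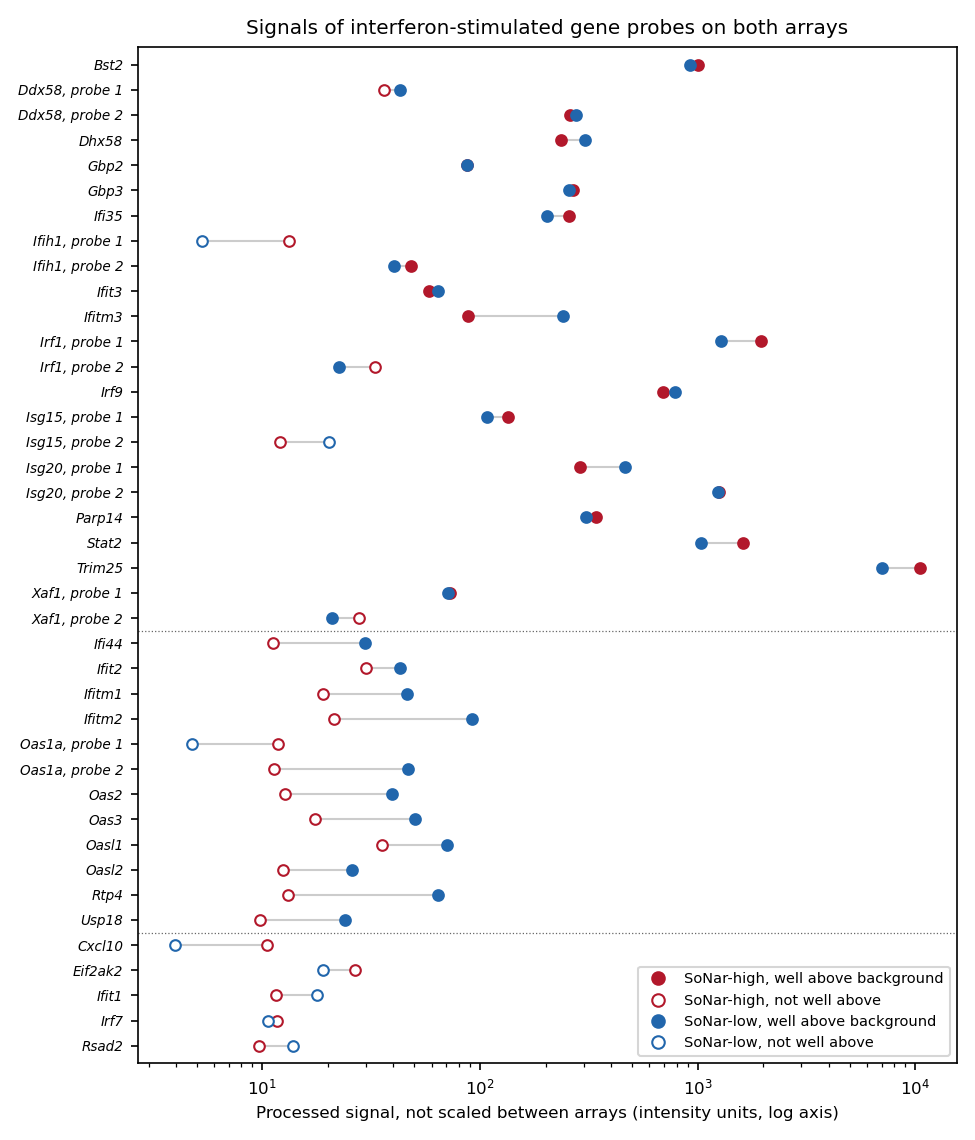
Processed signal (intensity units, log axis, not scaled between arrays) of the 40 probes of 33 members on the SoNar-high (red) and SoNar-low (blue) array, 1 array each; filled points are well above background and open points are not. The top block holds members measured on both arrays, the middle block the 11 seen in SoNar-low cells only, whose SoNar-high points are all open, and the bottom block the 5 seen on neither.

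Of the transcription factors of the response, Stat2 and Irf1 came first in the order of differences, and Irf9 and Irf7 did not share that place. Stat2, which encodes the STAT that is specific to the type I and III interferon pathway, gave 1620 units in SoNar-high and 1040 units in SoNar-low cells. After scaling this was a difference of 0.84 ± 0.20 (1.79-fold; the error, here and below, is the one the scanner software models for the spots of the probe, and covers no biological spread). Irf1, a factor induced mainly by interferon gamma that in turn activates many of the other genes, gave 1965 and 1285 units in the same order, a difference of 0.81 ± 0.20. A second Irf1 probe, dim and above background in SoNar-low cells only, gave 32.9 and 22.5 units. Irf9, the DNA-binding partner of STAT2, gave 694 and 783 units, which after scaling left 0.03 ± 0.21. So the genes of a pair of proteins that act in one complex had unlike RNA differences, Stat2 above 93.7% of all measured genes and Irf9 above 34.7%. Protein was not measured. Irf7, the master factor of interferon-alpha production, was above background in neither population, with 11.6 and 10.6 units.

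Stat2 and Irf1 lay above 0 in all 13 processing settings tried, the one used here included, and above the median gene in all 13. Across those settings Stat2 ranged from 0.55 to 1.41 and Irf1 from 0.52 to 1.38. Irf9 lay below the median gene in all 13, and its sign was above 0 in 8 and below in 5. Such counts of settings, here and below, are not counts of separate checks. Filters and probe choice left Stat2, which has 1 probe, at 0.84, and a plain rescaling shifts every gene alike.

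The ISG15 system attaches a ubiquitin-like protein to other proteins. Trim25, a ubiquitin ligase that activates the RNA sensor RIG-I and is itself modified by ISG15, gave 10485 units in SoNar-high and 7030 units in SoNar-low cells, a difference of 0.78 ± 0.20. It stayed above 0 in all 13 settings, from 0.48 to 1.34. Isg15 itself gave 135 and 108 units with its brighter probe, a difference of 0.52 ± 0.24. Its other probe was above background in neither population and pointed the other way, at 12.02 and 20.2 units, and with dim probes averaged in the gene stood at -0.02. Usp18, the protease that removes ISG15 and blocks the interferon receptor, was seen in SoNar-low cells only, at 23.9 units against 9.74.

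The 3 RNA sensors of the RIG-I family were measured, and none lay beyond 2 of its errors from 0. Ifih1, which encodes MDA5, a sensor of long double-stranded RNA, gave 48.1 units in SoNar-high and 40.4 in SoNar-low cells with its brighter probe, a difference of 0.45 ± 0.38, just above the lowest signal called well above background in SoNar-high cells (46.4 units). Under the series matrix it stood at 1.25, the only member at least 2-fold higher there, where 4.09% of genes were. Ddx58, which encodes RIG-I, a sensor of short RNA with a 5′ triphosphate, gave 260 and 277 units, or 0.11 ± 0.21. Dhx58, which encodes the regulatory family member LGP2, gave 235 and 304 units, or -0.17 ± 0.22. It lay below the median gene in all 12 settings that measured it.

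IFITM proteins sit in membranes and block the fusion of enveloped viruses, and this family held the 1 member at least 2-fold lower in SoNar-high cells. The Ifitm3 probe was printed as 10 spots. They read 69.2 to 104 units with a median of 91.0 in SoNar-high cells, and 192 to 275 units with a median of 243 in SoNar-low cells. The spots of the arrays did not overlap before scaling, at means of 89.2 ± 11.3 and 241 ± 24.6 units in the same order (SD, n = 10 spots of 1 array, which are not replicates of the cells). How many of the 124 measured probes with 10 spots on both arrays also had no overlap was not counted. The scaled difference was -1.24 ± 0.09, or 2.36-fold lower in SoNar-high cells, and 2.68% of measured genes lay lower. Ifitm3 was below 0 in all 12 settings that measured it, but under 2-fold with normexp background correction (-0.62), scaling to the median (-0.67) and quantile normalization (-0.95), and at the 2-fold line in the series matrix (-0.997, just short of it).

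The other members of the family were seen in SoNar-low cells only. Ifitm2 gave 92.1 units there against 21.4 in SoNar-high cells, and set against the lowest signal called well above background in SoNar-high cells it was at least 1.73-fold lower on that array. Ifitm1 gave 46.4 units against 19.05, which is too dim for a bound above 1. In all 3 genes the SoNar-high signal was the lower, before and after scaling, but only for Ifitm3 was that signal well above background. Of all genes seen in SoNar-low cells at under 100 units, as Ifitm1 and Ifitm2 were, 86.6% were not seen in SoNar-high cells. IFITM genes are also expressed by myeloid and other marrow cells, so the markers of those cells are given here. Of 9 measured neutrophil markers 8 lay below 0 and all 9 below the median gene (median -0.64), from Ngp (-1.24) and Retnlg (-0.98) to Camp (-0.13) and S100a9 (0.21), the 1 above 0. Summed over the 11 neutrophil markers with a probe, the scaled signal (1 is the 75th percentile of the array) was 43.8 in SoNar-high and 52.7 in SoNar-low cells. Without S100a9, the brightest of them, it was 22.9 and 34.6 in the same order. Of the 11 monocyte and macrophage markers with a probe 5 were measured, with a median of -0.31: Csf1r (-1.19), C1qb (-1.09) and Adgre1 (-0.31) were lower and Ly86 (0.70) and Mrc1 (0.62) higher. Another 4, Cd14, C1qa, C1qc and Fcgr1, were seen in SoNar-low cells only, and the defining gene Ccr2 in neither population. Their summed scaled signal was 12.6 and 8.86 in SoNar-high and SoNar-low cells, most of it from Ly86, and without Ly86 it was 1.27 and 1.87. The part these cells play in the Ifitm3 value was not tested.

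OAS proteins make the second messenger that activates the RNase L nuclease, and none of the 5 members of this family was measured on both arrays. All 5 were above background in SoNar-low cells only, each at under 100 units there. Of all genes that dim in SoNar-low cells, 86.6% were likewise not seen in SoNar-high cells. Oasl1 gave 70.4 units there and 35.4 in SoNar-high cells, at least 1.32-fold lower. Oas3 gave 50.2 units against 17.5, Oas2 39.3 against 12.7 and Oasl2 25.8 against 12.5, and for these no bound above 1 could be set. Oas1a was seen through 1 of its 2 probes, at 46.5 units against 11.3, while its other probe read 4.73 and 11.8 units in the same order and was well above background on neither.

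Copies of Oas1a lie beside it in the mouse genome, and near-identical copies can share signal with a member's probe. Oas1g, the closest, was above background in neither population. Oas1c (0.74), Oas1f (0.24), Oas1e (-0.30) and Oas1d (-0.44) were measured and had no common direction, and Oas1h was seen in SoNar-low cells only. Oas1b and Ifitm7 had no matched probe.

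The IFIT proteins bind foreign RNA and stop its translation. Ifit3 gave 58.4 units in SoNar-high and 64.4 in SoNar-low cells, a difference of 0.06 ± 0.33. Ifit2 was seen in SoNar-low cells only, at 43.0 units against 30.1, and Ifit1, whose promoter is printed above, on neither, at 11.5 and 17.9 units. Values of these dim genes depended on the scaling: Ifit3 stood at 0.66 in the series matrix and at -0.23 with the 75th percentile over probes seen on both arrays. Of its relatives Ifit1bl2 was measured (0.14), Ifit3b was seen in SoNar-low cells only, and Ifit1bl1 on neither.

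Guanylate-binding proteins coat vacuoles that hold microbes. Gbp2 gave 86.9 and 86.7 units in SoNar-high and SoNar-low cells, nearly the same signal, and 0.21 ± 0.27 after scaling. Gbp3 gave 269 and 258 units, or 0.26 ± 0.21, the median of the members. Both lay within 0.04 of the median gene, and the near-identical Gbp2b was above background in neither population.

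Other antiviral effectors had no common direction either. Bst2, which encodes tetherin, a protein that holds budding virions on the cell and is a surface marker of plasmacytoid dendritic cells, gave 1002 and 918 units, a difference of 0.33 ± 0.20. Parp14, an ADP-ribosyltransferase that uses NAD+ as substrate, gave 342 and 305 units, or 0.37 ± 0.21. Parp14 lay above 0 in all 12 settings that measured it. Isg20, a 3′ to 5′ RNA exonuclease, was the 1 member with a pair of measured probes, and they disagreed by more than their errors: 288 against 464 units with the dimmer (-0.49 ± 0.21) and 1248 against 1243 units with the brighter (0.21 ± 0.20), so the gene's mean of -0.14 describes neither. Rtp4, a chaperone that dampens the response, gave 64.2 units in SoNar-low and 13.1 in SoNar-high cells, at least 1.20-fold lower. Eif2ak2, the kinase PKR that shuts off translation, and Rsad2, which encodes viperin, were above background in neither population, with at most 26.5 units.

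The chemokine gene Cxcl10, which draws T cells to inflamed tissue, was above background in neither population, at 10.5 and 3.98 units. Ifi35, which encodes a partner of the protein NMI, gave 256 units in SoNar-high and 203 in SoNar-low cells, a difference of 0.54 ± 0.22. Xaf1, which encodes an antagonist of the apoptosis inhibitor XIAP, gave 73.0 and 71.6 units with its brighter probe, or 0.23 ± 0.33. Ifi44 was seen in SoNar-low cells only, at 29.6 units against 11.2.

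Of the 17 measured members, 5 lay further than 2 errors above 0 (Stat2, Irf1, Trim25, Ifi35 and Isg15), against 36.2% of all measured genes, and 1 as far below it (Ifitm3), against 13.5%. The 5 were also the members at 0.5 or more, 29.4% of the 17, and 26.8% of all measured genes reached that value. In the order of differences from Stat2 (0.84) down to Dhx58 (-0.17), the ranges of value ± modelled error overlapped between all neighbours. Only those of Dhx58 and Ifitm3 did not overlap. The error of Ifitm3 is that of a mean over 10 spots of 1 array, whereas each probe of the other members had 1 spot, so these ranges are not alike.

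**Figure D2:**
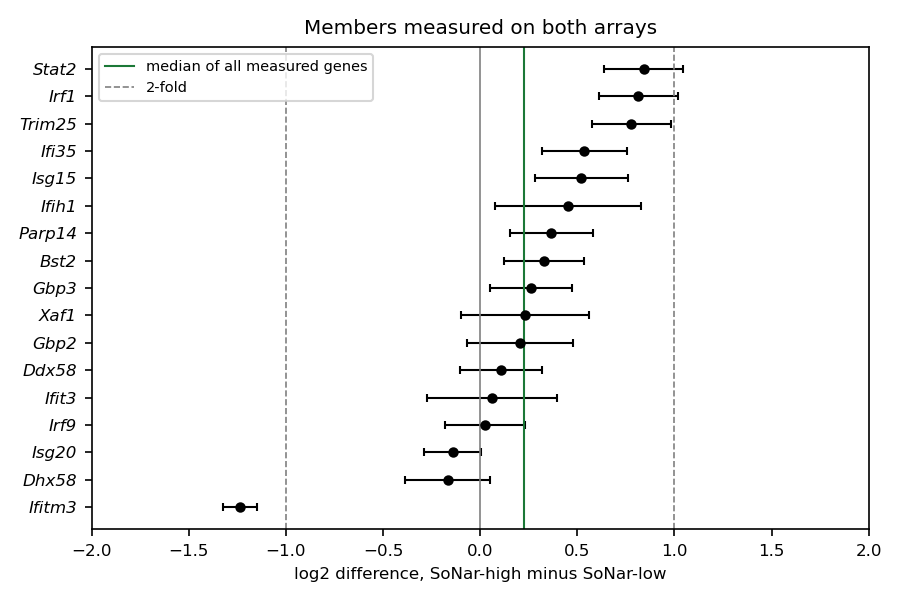
Difference between the arrays (log2, SoNar-high minus SoNar-low) for the 17 members measured on both, with the scanner software's modelled error as bars; 1 array per population. Ifitm3 at -1.24 is the only member past a dashed 2-fold line, and 10 members lie right of the green line, the median of all measured genes at 0.22.

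Which members were seen in SoNar-low cells only followed their brightness. Of 28 members well above background in SoNar-low cells, 11 (39.3%) were not in SoNar-high cells, against 34.1% of 15976 genes. All 11 were among the 15 members whose brightest probe read under 100 units in SoNar-low cells (73.3%); of all genes as dim, 86.6% were not seen in SoNar-high cells, and of brighter genes 4.05%. The limit of 100 units was chosen after the values were seen. The lowest signal called well above background was 46.4 units in SoNar-high and 19.7 units in SoNar-low cells, so a dim gene could pass on the second and not on the first at the same signal. No member was seen in SoNar-high cells only, and 5 were seen on neither.

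**Figure D3:**
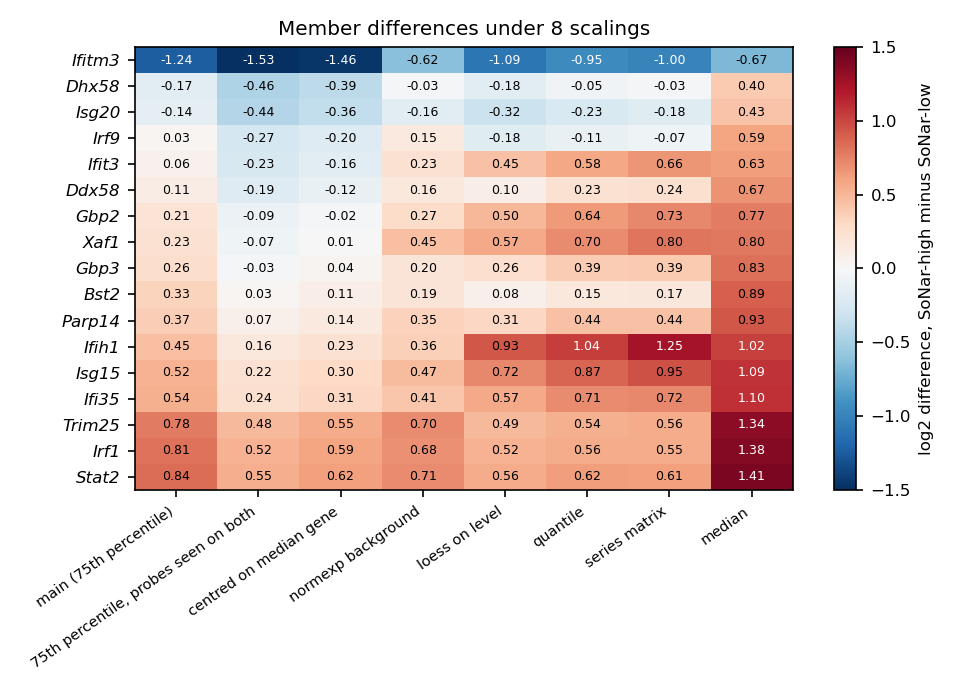
Difference of each of the 17 members (log2, SoNar-high minus SoNar-low, colour and printed value) under 8 ways of scaling or background correction, 1 array per population. The order from Ifitm3 to Stat2 is that of the scaling used in the text; Ifitm3 is below 0 and 8 members from Bst2 up to Stat2 are above 0 in every column, while the 8 from Dhx58 up to Gbp3 change sign between columns.

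The series matrix, in which the sorted values of the arrays are nearly alike, placed the members higher than the scaling used above did. There the median of the 17 was 0.55 and that of all measured genes 0.22, with 13 members above 0 and 12 above the median gene. Dim members moved up: Ifih1 stood at 1.25, Isg15 at 0.95, Xaf1 at 0.80, Gbp2 at 0.73 and Ifit3 at 0.66. Bright members moved down, Stat2 to 0.61, Trim25 to 0.56, Irf1 to 0.55 and Bst2 to 0.17, so the order of the members was not that of the 75th percentile scaling. Quantile normalization and loess on the level, which also treat dim and bright probes unequally, gave member medians of 0.54 and 0.45, with the median gene at 0.20 and 0.11. The group's distance from the median gene was therefore 0.34 under these 3 settings and 0.04 with the 75th percentile.

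The promoter core did not separate the members by their values. The 9 measured members with a core had a median difference of 0.26, from -1.24 (Ifitm3) to 0.84 (Stat2), and the 6 without one 0.38, from -0.14 (Isg20) to 0.81 (Irf1). Of the 16 members with a core, 3 were seen in SoNar-low cells only and 4 on neither. Of the 12 without one these counts were 5 and 1.

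Receptors and kinases through which interferon signals were largely measured. Of 11 such genes 9 were measured, 0 were at least 2-fold higher or lower, and their median was 0.29. The receptor genes Ifnar1 (0.08, the mean of probes at -0.31 and 0.47) and Ifnar2 (0.13) lay near 0, with 196 and 213 units for Ifnar1 and 496 and 523 units for Ifnar2 in SoNar-high and SoNar-low cells. Jak1 stood highest (0.75, 917 against 626 units), followed by the interferon gamma receptor gene Ifngr1 (0.53), and Tyk2 stood at 0.29 (1073 against 1007 units). Jak2, which serves the interferon gamma receptor, stood lowest (-0.46), next to Il10rb (-0.06).

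Among 20 genes that restrain the response, 18 were measured and 0 were past 2-fold in either direction, with a median of 0.26. The phosphatase gene Ptpn11 (0.83) and Samhd1 (0.79), which encodes a hydrolase of nucleotides, were highest. Irf2 (-0.46), a repressor that competes at interferon-responsive promoters, and Ptpn6 (-0.36) were lowest. The feedback gene Socs1 gave 308 and 286 units, a difference of 0.30.

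Sensors and adaptors upstream of interferon showed the widest range. Of 16 measured, 1 was higher by 2-fold or more and 1 was lower by as much, with a median of 0.14. Traf3, an adaptor of the pathways from nucleic acid sensors to interferon, gave 2359 units in SoNar-high and 1227 in SoNar-low cells (1.15), and Irf8 followed (0.65). Tlr9, the endosomal sensor of unmethylated DNA, gave 307 units against 1309, a difference of -1.89, and Tlr7, its relative for single-stranded RNA, 97.5 against 163 (-0.54). Unc93b1, which carries both receptors to the endosome, stood at -0.33, while the adaptor genes Myd88 and Mavs stood at 0.39 and Sting1 at 0.47. The genes named in this group rest on 1 measured probe each.

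Interferon genes themselves were dim. Of 16 with a probe 2 were measured, Ifnl3 (-1.52, 75.2 against 247.9 units) and Ifna14 (-0.96, 74.2 against 166.5 units), both lower in SoNar-high cells. Another 11 were seen in SoNar-low cells only, and 3, Ifnb1, Ifna4 and Ifnk, on neither. Of all genes well above background in SoNar-low cells, 34.1% were not in SoNar-high cells. That share was 86.6% for genes under 100 units in SoNar-low cells and 4.05% for brighter ones. Of the 11, Ifna13 (131 units), Ifnab (107 units) and Ifna12 (100.5 units) belonged to the brighter class in SoNar-low cells, and the others to the dimmer one. Interferon alpha genes are near-identical to each other, so the gene behind such a signal is uncertain. Among those seen in SoNar-low cells only, Ifna13 had the largest bound, at 131 units against 12.9, at least 2.46-fold lower in SoNar-high cells.

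A wider list of 65 other interferon-induced genes had 50 measured, with a median of 0.31; 0 were at least 2-fold higher, and 2 were lower by that size. Tap2, a subunit of the peptide transporter of antigen presentation (0.90), and the ADP-ribosyltransferase gene Parp10 (0.89) stood highest. The 2 lower genes were Epsti1 (-1.60, 81.9 against 285 units) and Iigp1, an immunity-related GTPase (-1.30, 303 against 859 units). Mnda, the gene of a myeloid nuclear protein, picked out after its values were seen, was seen in SoNar-low cells only, at 257 units against 40.4, and was at least 4.82-fold lower in SoNar-high cells.

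Markers of the labelled cell type were present in part. Of 15 B-lineage markers with a probe 11 were measured, with a list median of 0.31. Ebf1 (0.98) and Blnk (0.77) stood highest, and Cd22, a receptor of more mature B cells, was the 1 at least 2-fold lower (-1.10, 1252 units in SoNar-high against 3093 in SoNar-low cells), followed by Ptprc (-0.22). Of the genes that mark pro-B and pre-B cells, Vpreb1 (118 and 128 units) and Dntt (182 and 169 units) were measured, and Igll1, Il7r, Rag1 and Rag2 were above background in neither population. Plasmacytoid dendritic cells make much of the body's interferon alpha, and 6 of their 9 markers with a probe were measured: Siglech gave 9877 and 21221 units in SoNar-high and SoNar-low cells (-0.90) and Pacsin1 stood at -0.63, while Ccr9 (0.95), Bcl11a (0.67), Irf8 (0.65) and Tcf4 (0.55) were higher, the last 3 of which B-lineage cells also express. Summed over the 9, the scaled signal was 43.5 and 61.9, of which Siglech gave 24.2 and 45.1; without Siglech it was 19.4 and 16.8. Of the T and NK cell markers 7 were measured, with a median of -0.93, and they went both ways: Cd4 (-1.66), Cd3e (-1.20), Gzma (-1.07) and Nkg7 (-0.93) were lower, and Thy1 (1.37), Lck (0.998) and Zap70 (0.14) higher. The 4 measured erythroid markers, with a median of -1.02, ran from Hba-a1 (-1.82) and Ermap (-1.61) to Hbb-bt (-0.42) and Tfrc (-0.04). The 4 measured stroma and endothelium markers, with a median of -0.80, ran from Kdr (-1.48) to Pecam1 (-0.26). Whether such cells contribute to the values of Tlr9, Tlr7, the interferon genes or the members was not tested.

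**Figure D4:**
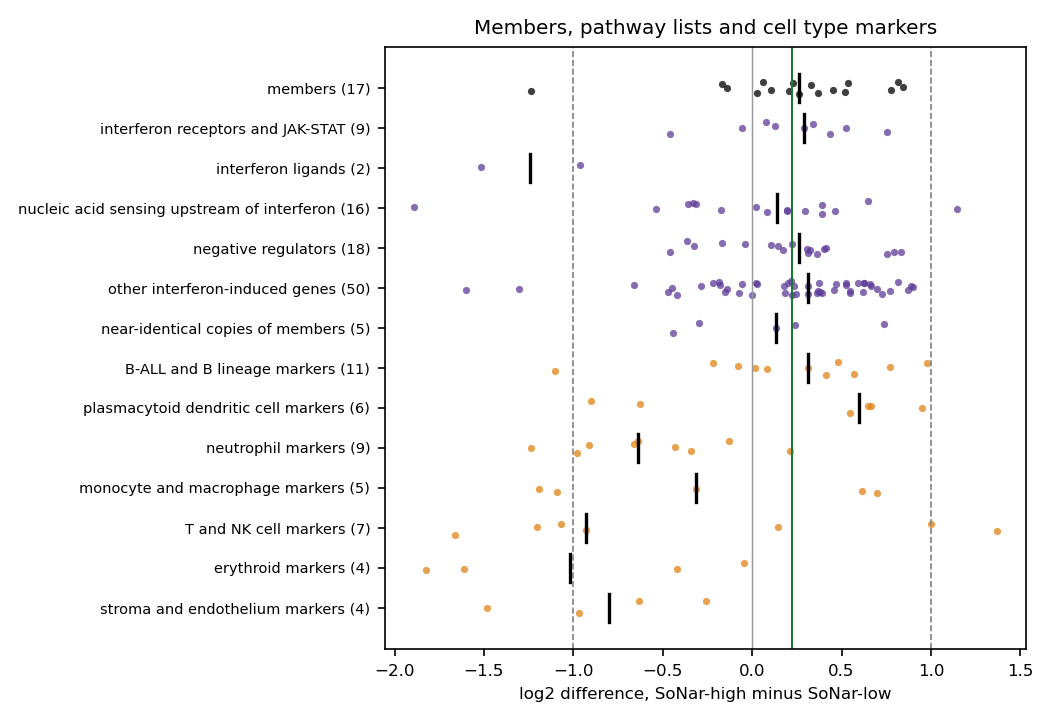
Differences (log2, SoNar-high minus SoNar-low, 1 point per gene measured on both arrays) of the members (black), of interferon pathway lists (purple) and of cell type markers (orange), with the number of genes in brackets and the median as a black bar. The members' median (0.26) lies beside the green line of the median gene (0.22), and the neutrophil, monocyte and macrophage, T and NK cell, erythroid and stroma medians lie left of 0; dashed lines mark 2-fold.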

How the data were processed

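The scanner files deposited by the authors hold 1-colour (Cy3) intensity values per spot, background-subtracted and with a modelled error, made with Agilent Feature Extraction 11.0.1.1 per the file headers; the submitters' processing notes name version 9.1. The flags for background and outliers are other values of the same deposited files. The authors also deposited a series matrix of log2 values, with medians of 5.86 on both arrays. Within the SoNar-high and SoNar-low array its rank correlations with the scanner signals were 1.000 and 0.9998, so it orders probes nearly as they do. The differences between the arrays correlated less, at 0.85. The scaling and centring of the matrix are not given in the sources used here. The arrays were scanned in separate sessions, and an effect of the session cannot be told apart from one of the population.

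Control spots and flagged outlier spots were left out, no spot was saturated, and replicate spots were averaged as log2 values (39085 probes; median SD between spots of probes with 10 spots, 0.17 and 0.07 on the SoNar-high and SoNar-low array). On these arrays 44.8% and 72.9% of 43020 spots were well above background. Each array was scaled to the 75th percentile of its probes (409 and 470 units). A gene's value averages those of its probes that are above background on each of the arrays (for replicate spots, on at least 50% of them); past 2-fold is a rule of size. A bound sets the SoNar-low value over the higher of the SoNar-high floor and the dim probe's own value. Symbols came from RefSeq accessions through a GRCm38 gene table, used with the promoter table for names and promoter sequences only, since the array design is of another build.

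The members and lists were chosen with earlier results of these data known. All members are reported; of each pathway list, the 2 highest and 2 lowest genes and some fixed ones are named; other genes of those lists and the cell type markers named were picked after their values were seen. Summed marker signals add each gene's scaled signal over its measured probes, or over all its probes where none is measured. Some genes of the lists are not reported here. The gene step was tested on simulated data. Alternatives covered background correction (normexp on the median spot signal), scaling, filters, probe choice, the series matrix and thresholds. Analyses used Python 3.11.15, numpy 2.4.6, pandas 2.3.3, statsmodels 0.14.6, matplotlib 3.10.9, R 4.3.3 and limma 3.58.1.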

Additional observations from a re-analysis of the deposited data

How the results depend on the processing

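No paired analysis was possible because each population has 1 array, and none could be left out. The median difference of the members, 0.26, moved to 0.83 with scaling to the median, -0.034 with the 75th percentile over probes seen on both arrays, 0.038 with centring on the median gene, 0.54 with quantile normalization, 0.45 with loess on the level, 0.55 in the series matrix, -0.015 with no filter on dim probes and 0.55 with the stricter filter; relative to the median gene under the same setting it ran from -0.06 to 0.34. The count of members at least 2-fold higher, 0, became 6 with scaling to the median (32.1% of genes) and 1 with quantile normalization (3.31%), the series matrix (4.09%; Ifih1 in both) or no filter (9.14%; Cxcl10, not above background), and 3 at a threshold of 1.5-fold (20.4%). The count at least 2-fold lower, 1, became 0 with normexp, scaling to the median, quantile normalization, the series matrix, the stricter filter (which left out Ifitm3) and a 3-fold threshold, and 8 with no filter (12.3% of genes), where dim signals enter. Without a filter 33 members count as measured and with the stricter one 6. Ifitm3 kept its sign in the 12 settings that measured it, whereas Isg15, past 2-fold with scaling to the median (1.09), lay just below 0 with no filter. Scaling shifts of the median gene account for the first 3 of these medians; for the others the cause was not tested. Signal over background limits 16 of 33 members to a bound or no value.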
